A study of Mus musculus with 14 samples.

Results

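Livers of mice fed a high-fat Western diet with sugar in their drinking water were set against livers of mice fed chow. The samples were chosen by their diet label alone, which gave 5 livers on the Western diet with sugar (HFWD+sugar) and 4 on chow, or 9 of the 14 livers in the study. The other 5 livers came from mice on the same Western diet with plain water (HFWD) and are used for the estimate of spread and for values set beside the main comparison. Every mouse was of the C57BL/6N strain and began its diet at 7 weeks of age. Fat gave about 12% of the energy of the chow and 40% of that of the Western diet, whose fat came from lard, butterfat and Crisco at 30% each. The sugar, 42 g in each litre of water, was 55% fructose and 45% sucrose. RNA was taken from whole frozen liver, ribosomal RNA was removed and paired reads were sequenced. Sex and time on the diet are not given in the labels used here, nor is it stated that each library came from a separate animal, so p-values may measure technical spread only. Of the 22850 gene rows of the table of normalized expression values, 14770 were above its floor of 1 in at least 4 of the 14 livers and were tested, and the other 8080 were not.

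The liver makes cholesterol from acetyl-CoA by a chain of enzymes whose genes are switched on together by the transcription factor SREBP2 when the cell is short of sterols, and switched off when sterols from the diet arrive. The related factor SREBP1c, with the sugar-sensing factor ChREBP, drives the genes that turn sugar into fat, while PPARα drives those that burn it. Fructose enters liver metabolism through ketohexokinase and bypasses the main control point of glycolysis. Fat that is neither burned nor exported is packed into lipid droplets coated by proteins of the perilipin and CIDE families.

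Of the 14770 rows tested, 1336 (9.05%) differed between HFWD+sugar and chow at an adjusted p under 0.05. Rows that rose numbered 837 (5.67%) and rows that fell 499 (3.38%). Among the deepest falls were rows next to genes of cholesterol synthesis. The rises included the rows of the P450 gene Cyp2b9, the lipid droplet gene Cidea and the fatty acid transporter Cd36. A change of at least 2-fold was reached by 413 of the rises and 110 of the falls, and one of at least 4-fold by 93 and 29. The groups did not overlap in 951 of the called rows, beside 1434 (9.71%) of all rows tested. The median difference over all rows tested was 0.12 on the log2 scale, and centring each library on its median turned the split into 420 rises and 1151 falls, so directions of small differences depend on the scaling. Each call was repeated under 20 alternative settings, and 390 of the 1336 (29.2%) passed under all that tested the row, 233 of them rises and 157 falls. These are called durable below, and full values are given mainly for them. A count given without named livers is the count with each of them left out alone. The total was 858 without chow 1, 742 without chow 3, 860 without HFWD+sugar 2, 674 without HFWD+sugar 4 and 880 without HFWD+sugar 5. Low rows made up part of the rises, since 143 of them had a chow mean under 10 units and 20 were at the floor in all 4 chow livers.

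**Figure D1:**
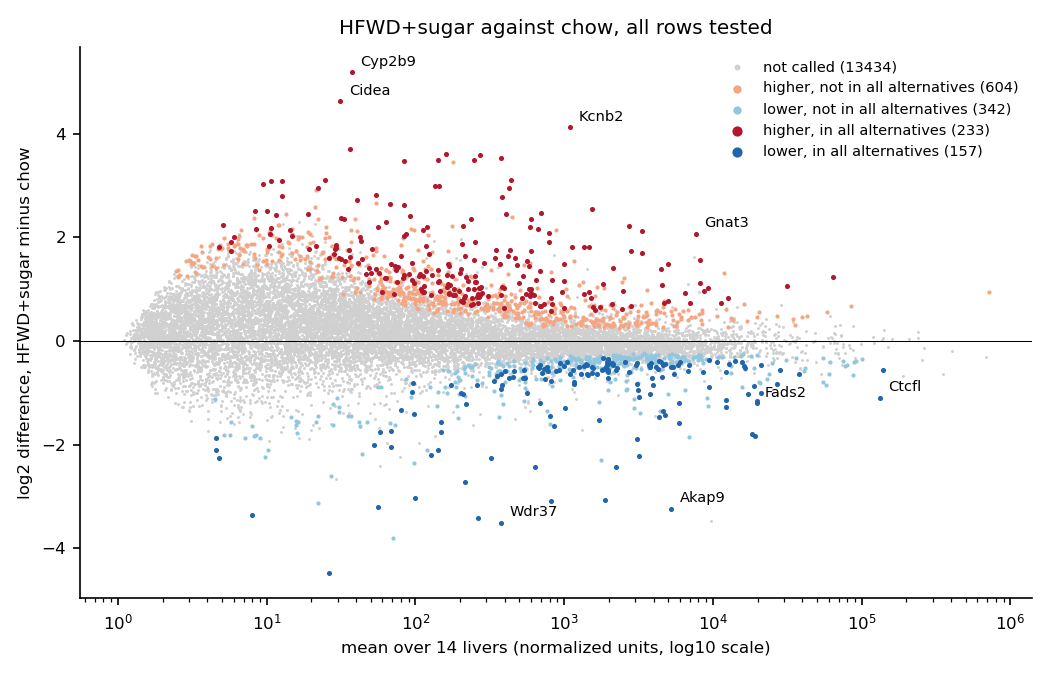
Log2 difference of HFWD+sugar from chow (vertical axis, log2 of value plus 1) against the mean level over 14 livers (horizontal axis, log10 scale, normalized units) for the 14770 rows tested. Grey points did not pass an adjusted p of 0.05. Dark colours are the 390 called rows that passed under all alternatives, and light colours are the other called rows. At or above the median level of 53.99 units lie 630 of the 837 rises and 462 of the 499 falls.

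The libraries differed in depth. Read from the steps between low values, 1 read was worth 2.47 to 6.85 units in the 9 livers, equal to 3.77 M reads in chow 4 and 7.19 M to 9.31 M in the other 8 livers. Chow livers had more rows at the floor than HFWD+sugar livers (9547 ± 816 rows, SD, n = 4, against 8807 ± 261, n = 5; exact two-sided permutation p = 0.0238), and this difference missed 0.05 in 8 of the 9 repeats with a single liver left out, the most without chow 4 (p = 0.107). The median log2 level of the tested rows was lower on chow, 5.64 ± 0.09 (SD, n = 4) against 5.85 ± 0.13 (n = 5), with an exact permutation p of 0.0397, which was likewise lost in 8 of 9 such repeats. The part of these library differences in the rises of low rows was not tested. Rows of hepatocyte plasma protein genes held RNA signal, as 21 of 21 such rows in the list were tested. Their summed level was 534260 to 1222276 units on chow and 399726 to 504301 on HFWD+sugar, so the sums did not overlap. A sum in units is weighted to the highest rows and does not stand for each member. The median log2 difference of the 21 rows was 0.28, with 14 of them above 0.

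Rows of listed genes often had a neighbouring row of higher level on the other strand. The values were not divided by gene length, so levels of different rows are compared here per kb of exon in the mm9 annotation (GENCODE vM1). Of 293 listed genes with a mean of at least 100 units and a neighbour, 205 (70.0%) had a row on the opposite strand within 200 kb that was higher per kb of exon than the gene's own row, at a median of 6.89 times it. The share for rows on the same strand was 133 of 289 (46.0%), at a median of 0.793 times. In examples chosen after their values were seen, the row of Pck1, the gluconeogenic enzyme PEPCK, held 304 units per kb, while that of Ctcfl, a testis paralogue of the insulator protein CTCF lying 33.5 kb away on the other strand, held 41282. The row of Arg1, the last enzyme of the urea cycle, held 1505 units per kb and that of Med23, 1.53 kb away on the other strand, 13437. Which transcripts gave the reads of these rows was not tested, and the strand setting of the authors' counting is not given in these sources. Results below are therefore those of rows. Beside some listed genes, the highest opposite-strand row within 200 kb is given where its mean exceeded that of the gene's own row. Over all lists 399 such rows were tested, of which 42 (10.5%) rose and 51 (12.8%) fell, against 5.67% and 3.38% of all rows. The rule favours high rows, and of the 7385 rows at or above the median level 8.53% rose and 6.26% fell. The 335 same-strand rows picked by the same rule gave 3.88% and 11.0%. In bulk liver, a fall in a row cannot be told apart from a fall in the share of the cells that hold the transcript.

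Some of the rows on the opposite strand from cholesterol synthesis genes fell on HFWD+sugar. Of 11 such rows tested, 5 fell, 0 rose and all 5 falls were durable, beside 3.38% of all rows and 6.26% of those at or above the median level that fell. The median log2 difference of the 11 rows was -0.10. The Akap9 row (mm9, chromosome 5, 3928054 to 4080209, plus strand), named for a scaffold protein of the Golgi and centrosome, lies 0.936 kb from Cyp51, the lanosterol demethylase. It stood at 12707, 16989, 13374 and 15139.8 units in the chow livers and at 1329, 1895, 1695, 1145 and 1777 in the HFWD+sugar livers. The groups did not overlap, and the lowest chow liver lay far above the highest HFWD+sugar liver. The fall was 9.38-fold (log2 difference -3.23, SE 0.13, adjusted p = 1.75e-10). The E430025E21Rik row lies 0.806 kb from Sqle, squalene epoxidase, and was at 3639, 8346, 4629.5 and 4103 units on chow against 661, 557, 626, 536 and 549.9 on HFWD+sugar. It fell 8.38-fold (log2 difference -3.07, SE 0.17, adjusted p = 6.33e-09), with HFWD+sugar livers close to each other and chow 2 the highest of the chow livers. The Ash1l row, named for a histone methyltransferase and 14.2 kb from Fdps, whose enzyme makes farnesyl diphosphate, held 5349, 4232, 4504 and 7501 units on chow and 870.3, 1012, 986, 752 and 1388 on HFWD+sugar, a 5.36-fold fall (adjusted p = 2.97e-07). The BC048609 row, 11.7 kb from the sterol reductase gene Tm7sf2, was even within groups, at 10707, 10311, 11063 and 12289.9 and then 3719, 3653, 4050.0, 3462 and 3679.7 units (2.98-fold, adjusted p = 1.56e-09).

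Opposite-strand rows that were lower than the own row of an enzyme of the chain, and so are not among the 11, fell as well beside Idi1, Nsdhl and Dhcr7. The row of Wdr37 (mm9, chromosome 13, 8802214 to 8871155, minus strand), which lies 13.6 kb from Idi1, the isomerase of isopentenyl diphosphate, was the deepest fall among the called rows of at least median level, predicted genes left out. Its values were 846, 1100.1, 1100.4 and 1373 units on chow and 87.3, 103, 106, 80.7 and 101.3 on HFWD+sugar (11.3-fold, log2 difference -3.50, SE 0.19, adjusted p = 6.24e-09). Chow 4 was the highest liver, and the groups stayed apart without it. The following rows were chosen after their values were seen. Cetn2, 0.146 kb from Nsdhl, a dehydrogenase of sterol rings, fell from 768 ± 236 to 155 ± 30.2 units (4.80-fold, adjusted p = 3.77e-06). Nadsyn1, 0.296 kb from the final reductase gene Dhcr7, fell from 3248 ± 659 to 1148 ± 286 (2.85-fold, adjusted p = 2.52e-05). Camk4, 3.59 kb from Stard4, a sterol carrier of the list for sterol sensing, fell from 6029 ± 2171 to 1577 ± 320.1 (3.68-fold, adjusted p = 9.35e-05). These 3 falls were durable and the groups did not overlap in any of them (n = 4 and 5, SD throughout).

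**Figure D2:**
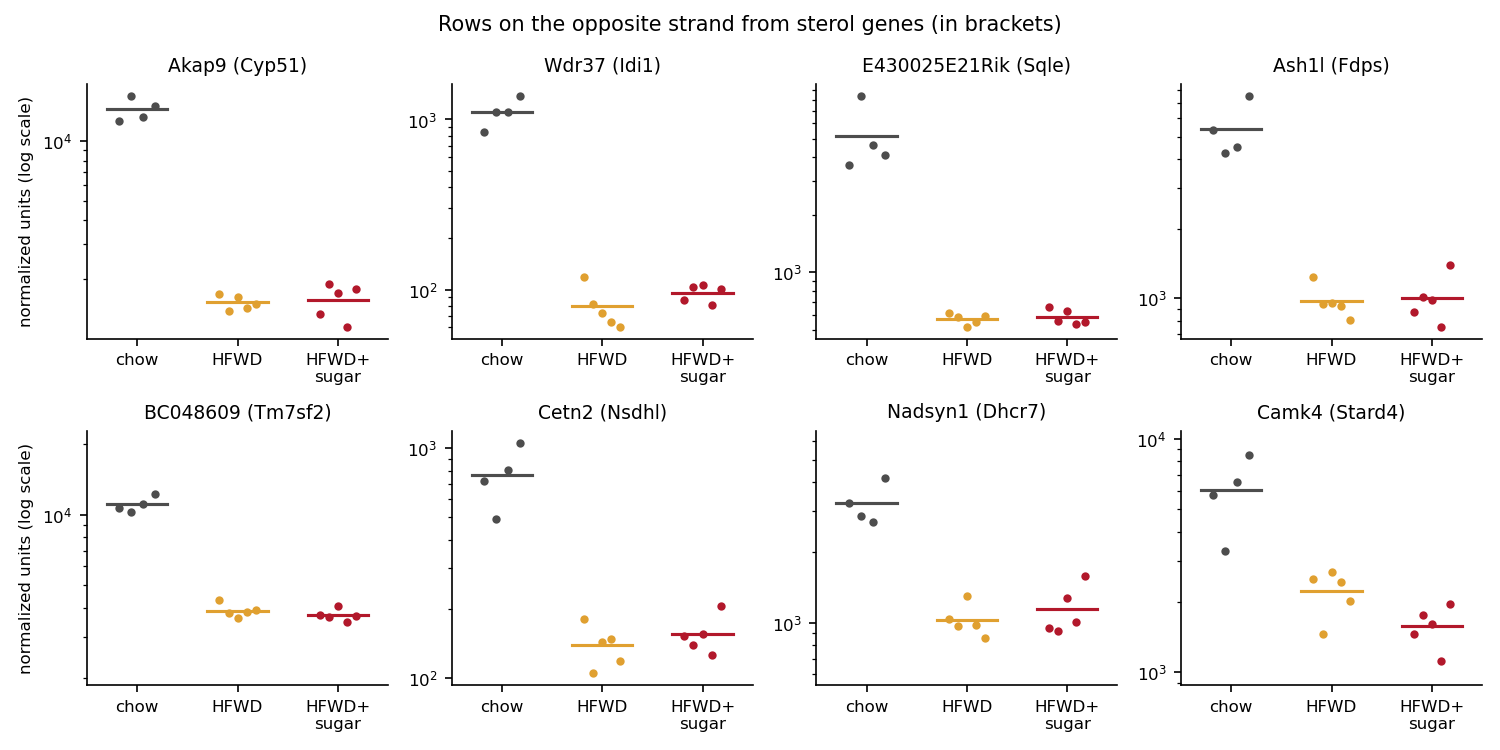
Normalized units (vertical axes, log scale) of 8 rows that lie on the opposite strand from a sterol gene, named in brackets, in the 4 chow, 5 HFWD and 5 HFWD+sugar livers; each point is a liver and each bar the group mean. In all 8 rows the chow livers lie above every HFWD+sugar liver, as in Akap9, whose group means were 14552 and 1568 units.

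Fewer of the enzymes' own rows were called. Of 20 tested members of the cholesterol synthesis list, 4 fell and none rose (0 of 20), beside 3.38% and 5.67% of all rows. The list's median log2 difference was -0.22 beside 0.12 over all rows. The 4 were Fdps, Sc4mol (the sterol C4 methyl oxidase), Pmvk (phosphomevalonate kinase) and Tm7sf2, and only the fall of Fdps was durable. The Fdps row was low throughout, at 6.74, 7.67, 12.9 and 20.6 units on chow and 1, 1, 1, 4.95 and 1 on HFWD+sugar, where 4 of 5 livers were at the floor (adjusted p = 0.00869). The count was 2 without chow 1, or HFWD+sugar 3, 4 or 5, and 7 with median centring. The own row of Sqle was at 176 ± 17.2 units on chow and 173 ± 11.9 on HFWD+sugar (adjusted p = 0.95) and did not pass. Of the 15 members of the list for sterol sensing and LDL uptake none was called (0 of 15), beside 9.05% of all rows.

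Promoters of 4 of these enzymes, whose opposite-strand rows fell, are printed to show a letter pattern common in the list. Whether the pattern goes with the falls was not tested. SREBP2 works beside the factor NF-Y, which binds CCAAT, and capitals mark CCAAT or its reverse complement ATTGG. The windows run from 250 bases before to 50 after the start, 5′ to 3′ on the gene's strand, from RefSeq on build GRCm38.p6, which is not the build of the expression rows.
Idi1 promoter, chr13:8885356-8885655, plus strand: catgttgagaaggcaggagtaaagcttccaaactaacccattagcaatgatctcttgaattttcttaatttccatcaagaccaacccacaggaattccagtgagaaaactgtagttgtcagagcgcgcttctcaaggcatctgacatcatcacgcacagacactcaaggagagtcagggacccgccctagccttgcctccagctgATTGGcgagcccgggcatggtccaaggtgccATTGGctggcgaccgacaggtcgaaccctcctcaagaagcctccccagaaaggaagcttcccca
Cyp51 promoter, chr5:4104648-4104947, minus strand: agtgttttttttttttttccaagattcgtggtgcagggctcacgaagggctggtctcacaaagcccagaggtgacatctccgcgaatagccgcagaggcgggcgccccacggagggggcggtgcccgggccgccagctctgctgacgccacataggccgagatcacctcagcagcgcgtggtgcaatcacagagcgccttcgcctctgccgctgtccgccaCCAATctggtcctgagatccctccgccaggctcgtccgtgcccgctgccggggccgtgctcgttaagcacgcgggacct
Nsdhl promoter, chrX:72918271-72918570, plus strand: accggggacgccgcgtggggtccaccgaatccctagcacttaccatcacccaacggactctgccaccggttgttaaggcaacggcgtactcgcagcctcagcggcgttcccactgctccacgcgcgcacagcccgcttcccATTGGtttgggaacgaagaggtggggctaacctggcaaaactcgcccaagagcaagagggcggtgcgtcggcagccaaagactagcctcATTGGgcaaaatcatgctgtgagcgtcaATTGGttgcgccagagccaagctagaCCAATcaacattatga
Tm7sf2 promoter, chr19:6067801-6068100, minus strand: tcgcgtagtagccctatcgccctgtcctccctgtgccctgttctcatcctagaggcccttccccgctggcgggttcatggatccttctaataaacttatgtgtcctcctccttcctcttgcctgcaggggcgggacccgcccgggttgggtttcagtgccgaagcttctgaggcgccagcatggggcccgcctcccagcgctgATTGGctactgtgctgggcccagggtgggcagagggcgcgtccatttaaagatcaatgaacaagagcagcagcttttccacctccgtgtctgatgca
CCAAT on either strand was in the window of 14 of the 15 listed cholesterol synthesis genes with an entry, by any of their starts, and in 41.1% of all 27025 genes with an entry. It occurred in 37.4% of the 32851 windows of the same length. The sterol element letters TCACNCCAC, searched on both strands, were in 1 of the 15 genes and in 1.44% of all genes. None of the 4 windows printed held them. A match is a run of letters and was not tested for binding.

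The list of sterol export and bile acid synthesis held rises. Of 22 members tested, 4 rose and none fell (0 of 22), beside 5.67% and 3.38% of all rows. The 4 were Abcg5, Hsd3b7, Abcb4 and Slco1b2. Abcg5, which forms with Abcg8 the pump that sends cholesterol into bile, was at 37.2, 33.7, 33.2 and 54.8 units on chow and 82.4, 94.4, 84.8, 163 and 169.7 on HFWD+sugar. The groups did not overlap, the rise was 2.85-fold (adjusted p = 0.00224), and it was the durable one of the 4. The count was 2 without chow 3, or HFWD+sugar 1, 2 or 4. Hsd3b7, an enzyme that modifies the sterol ring on the way to bile acids, went from 80.3 ± 12.1 to 202 ± 61.5 units (2.42-fold, adjusted p = 0.0105) and missed the threshold only with chow 2 and chow 4 both left out (adjusted p = 0.0569). Cyp7a1, the rate-limiting enzyme of bile acid synthesis, varied widely, at 136, 10.6, 34.6 and 73.6 units on chow and 93.4, 94.6, 226, 313 and 239 on HFWD+sugar, and narrowly missed the threshold (adjusted p = 0.0516). The groups overlapped through chow 1.

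The list of fatty acid synthesis and desaturation held calls in both directions. Of 20 members tested, 4 rose (Scd1, Scd2, Elovl1 and Elovl5) and 2 fell (Fads1 and Fads2), beside 5.67% and 3.38% of all rows. Scd1, which makes oleate from saturated fat, was at 4582, 6445, 5189 and 4429 units on chow and 10938, 11275, 9928, 13288 and 10377 on HFWD+sugar, 2.18-fold higher with no overlap (adjusted p = 3.62e-05). Fads2, the first desaturase on the way to long polyunsaturated fatty acids, was at 35784, 30605, 34533 and 35335 and 15496, 14626, 15945, 12200.0 and 16085 units, 2.30-fold lower (adjusted p = 4.72e-05). Both calls were durable, and in each row the livers of a group lay close to each other. The Scd2 row rose from 467991 ± 77408 to 897545 ± 70293 units (1.93-fold, adjusted p = 0.00136), and missed the threshold without a filter (adjusted p = 0.337) and with median centring (0.0773). Scd2 lies 87.6 kb from Scd1 on the other strand and held 131198 units per kb of exon over the 14 livers against 1704 for Scd1. The Sycp2l row, chosen after its values were seen, lies 8.02 kb from the elongase gene Elovl2 on the other strand and fell from 31929 ± 1769 to 16195 ± 3099 units (2.00-fold, adjusted p = 0.00014). The count of rises was 2 without chow 1 or 3, or HFWD+sugar 2 or 4, and the count of falls 1 without chow 1, 2, 3 or 4, or HFWD+sugar 1, 3, 4 or 5. The fatty acid synthase row Fasn was at 74.3, 71.6, 63.3 and 147 units on chow and 75.1, 211, 179.8, 123 and 189 on HFWD+sugar, with overlap (adjusted p = 0.133). Rows of the factors behind these genes did not pass either, with Srebf1 (SREBP1) at 39.2 ± 14.8 and 70.4 ± 19.4 units (adjusted p = 0.115) and Mlxipl (ChREBP) at 49.7 ± 11.2 and 60.3 ± 17.2 (adjusted p = 0.578).

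Rows of some genes that take up fatty acids and store them in droplets rose. Of 26 tested members of the list, 7 rose and none fell (0 of 26), beside 5.67% and 3.38% of all rows; the list's median log2 difference was 0.58 beside 0.12 over all rows. They were Cidea, Cd36, Fabp2, Mogat1, Hsd17b13, Pparg and Fitm1, of which the first 3 were durable. Cidea, a protein that enlarges lipid droplets and is usually named with brown fat, was at 1, 2.65, 1 and 1 units on chow and 68.9, 77.6, 38.3, 74.7 and 38.5 on HFWD+sugar (log2 difference 4.64, SE 0.45, adjusted p = 5.55e-06). In chow livers it was at or next to the floor, so no fold is given, whereas each HFWD+sugar liver held at least 38.3 units. Cd36, the fatty acid translocase of the cell surface, was at 45.6, 29.1, 31.6 and 54.7 and 189, 154, 132, 320.4 and 168 units, 4.62-fold higher (adjusted p = 0.000113). The Gnat3 row, 73.7 kb from Cd36 on the other strand and named for a taste receptor G protein, was at 2393, 2291, 1735 and 4542 and 10408, 10509.7, 11144, 12968 and 9374 units, 4.22-fold higher (adjusted p = 4.94e-06). Per kb of exon it held 5965 units over the 14 livers against 30.4 for Cd36. The BC035947 row, chosen after its values were seen, overlaps the acyltransferase gene Mogat1 on the other strand. It was at 19.2, 36.8, 25.96 and 108 units on chow and 528, 393, 427, 647 and 390.2 on HFWD+sugar (12.1-fold, adjusted p = 5.61e-06). Fabp2, a fatty acid binding protein, went from 76.1 ± 36.3 to 175 ± 34.0 units (2.42-fold, adjusted p = 0.00344). The count of rises was 4 without HFWD+sugar 4 and 11 without chow 2.

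Other droplet genes did not pass. The droplet coat row Plin2 was at 224, 1072, 384 and 321 units on chow and 697, 871, 357, 788 and 555 on HFWD+sugar (adjusted p = 0.331), where chow 2 was the highest of the 9 livers. Cidec, the sister of Cidea, was at 2717 ± 466 and 2109.8 ± 222 units (adjusted p = 0.0911). Pparg, the fat cell regulator PPARγ, stayed low at 2.56, 1, 8.64 and 6.85 and 21.8, 12.7, 14.3, 22.2 and 10.4 units; its rise (3.45-fold, adjusted p = 0.0255) was lost in 8 of the alternatives. Adipocyte markers were few, with 3 of 6 rows tested, 1 at the floor in all 9 livers and a summed level of 2451 to 2989 units on chow and 2883 to 3387 on HFWD+sugar. The adipsin row Cfd, one of the 3, rose from 595 ± 161 to 823 ± 48.2 units (1.41-fold, adjusted p = 0.0331), and the call was lost in 11 of 20 alternatives. The part of these markers in the rise of Cidea and Cd36 was not tested. The Med16 row, 2.05 kb from Cfd on the other strand, rose from 2084 ± 417 to 5905 ± 1672 units (2.79-fold, adjusted p = 0.00317).

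**Figure D3:**
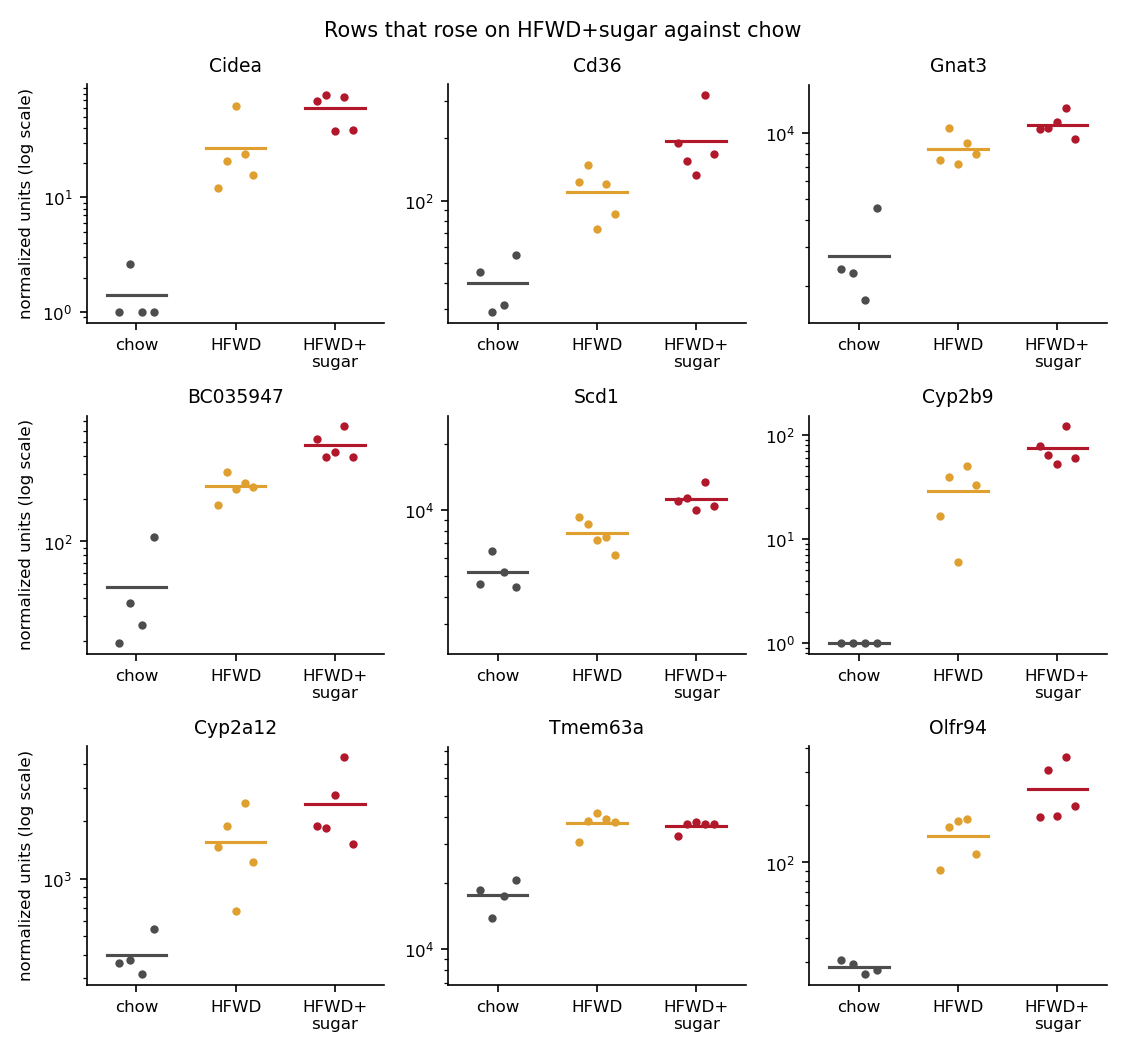
Normalized units (vertical axes, log scale) of 9 rows that rose on HFWD+sugar, in the 4 chow, 5 HFWD and 5 HFWD+sugar livers; each point is a liver and each bar the group mean. In these rows every HFWD+sugar liver lies above every chow liver, and for Cyp2b9 all 4 chow livers sit at the floor of 1.

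Rows of fructose and glucose breakdown genes also rose in part. Of 24 members tested, 7 rose and none fell (0 of 24), beside 5.67% of all rows that rose, at a median log2 difference of 0.47 beside 0.12 over all rows, and 3 were durable. Pfkfb1, which makes and breaks the signal molecule that speeds glycolysis, was at 458, 412, 473 and 457 units on chow and 709.9, 722, 689, 817 and 801 on HFWD+sugar (1.66-fold, adjusted p = 0.000226). The groups did not overlap. Gpd2, the mitochondrial glycerol phosphate dehydrogenase, went from 43.3 ± 13.5 to 93.8 ± 13.1 units (2.20-fold, adjusted p = 0.00564). Khk, the ketohexokinase through which fructose enters, was at 174, 519.9, 358 and 267 and 532, 744, 380.4, 687 and 766 units, so that chow 2 lay within the range of the HFWD+sugar livers. Its 1.97-fold difference passed (adjusted p = 0.0298) and was lost in 8 alternatives. Sord, Pklr and Gpd1 were also called. The count was 3 without HFWD+sugar 2 or 4 and 4 without chow 3, or HFWD+sugar 5. Of 20 opposite-strand rows of this list tested, 0 rose and 1 fell, not durably. Their median log2 difference was 0.01, and 8.53% and 6.26% of rows at or above the median level rose and fell. The rises of the own rows were thus not seen in these higher rows.

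Rises were also common among rows of fatty acid oxidation and PPARα target genes. Of 33 members tested, 9 rose and none fell (0 of 33), beside 5.67% of all rows that rose, at a median log2 difference of 0.68. Durable rises were those of Acaa1b, Vnn1, Acadm and Decr2. Acaa1b, a peroxisomal thiolase, was at 305, 368, 321 and 262 units on chow and 729, 846, 598, 913 and 691 on HFWD+sugar (2.39-fold, adjusted p = 0.000323). Vnn1, a pantetheinase, was at 17.95, 10.6, 11.4 and 34.0 and 93.3, 75.9, 67.6, 106 and 65.1 units (4.62-fold, adjusted p = 0.00119). The highest chow liver in both rows was below the lowest HFWD+sugar liver. Acadm, the medium-chain acyl-CoA dehydrogenase, rose from 164 ± 22.8 to 333 ± 79.0 units (2.00-fold, adjusted p = 0.0094), and Decr2, a peroxisomal reductase for unsaturated chains, from 49.9 ± 10.6 to 124 ± 31.4 (2.43-fold, adjusted p = 0.00913). Cpt1a, the gatekeeper of mitochondrial oxidation, Slc25a20, Bdh1 and Decr1 were among the others. The count was 4 without HFWD+sugar 4 and 5 without chow 1 or 3, or HFWD+sugar 5. Of 22 opposite-strand rows of this list tested, 3 rose, 1 of them durably, and 1 fell, at a median log2 difference of 0.05. Rows at or above the median level rose in 8.53% and fell in 6.26%. Fgf21, a hormone of the fasted liver, stayed next to the floor, at 1, 2.65, 1 and 1 units on chow and 1, 1, 2.61, 3.27 and 1.38 on HFWD+sugar (adjusted p = 0.793).

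Rows of some drug-metabolizing P450 genes rose. Of 29 members tested, 6 rose and 1 fell, beside 5.67% and 3.38% of all rows. Cyp2b9, a P450 known in mice for its higher level in female liver, was at the floor of 1 unit in all 4 chow livers and at 79.0, 64.2, 53.0, 121 and 59.7 units in the HFWD+sugar livers (log2 difference 5.19, SE 0.49, adjusted p = 4.35e-06). This was the largest log2 difference among the called rises and rests on the floor, since with a pseudocount of 10 it was 2.91, below the 3.95 of Kcnb2. Cyp2a12, a steroid hydroxylase, was at 363, 375, 316 and 546 and 1897, 1848, 2754, 4328 and 1516 units (5.84-fold, adjusted p = 0.000117). Cyp2c38 was at 29.3, 5.31, 5.76 and 20.6 and 65.2, 114, 89.3, 130.4 and 67.5 units (7.03-fold, adjusted p = 0.00537). The groups did not overlap in any of the 3. Cyp2a5, the coumarin hydroxylase, rose from 115 ± 56.3 to 335 ± 114 units (2.96-fold, adjusted p = 0.00672), with HFWD+sugar 2 inside the chow range. These 4 rises were durable, while those of Cyp2j5 and Cyp2d26 were not. The count of rises was 11 without HFWD+sugar 3. Near-identical P450 copies lie in the same clusters, so reads may be split between them. The fall, of Cyp2c70, was not durable, its count being 0 without chow 2, 3 or 4, or HFWD+sugar 1, 2 or 4. The Cyp1a1 row, chosen after its values were seen and 13.96 kb from Cyp1a2 on the other strand, fell from 17430.5 ± 3619 to 8089 ± 2541 units (2.20-fold, adjusted p = 0.00101).

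Of 25 members of the list for NRF2, the switch of antioxidant defence, 5 rose and 1 fell, beside 5.67% and 3.38% of all rows. Ephx1, the microsomal epoxide hydrolase, was at 1231, 504, 911 and 2386 units on chow and 3205, 3316, 3352, 3938 and 4289 on HFWD+sugar (3.33-fold, adjusted p = 0.00154), with a wide spread among chow livers. The Tmem63a row, 1.04 kb away on the other strand and named for an ion channel, was at 18557, 13811, 17382 and 20668 and 32753, 37118, 37974, 37001 and 37212 units (2.09-fold, adjusted p = 1.64e-05). Both rises were durable, with no overlap. Gstm1, Gstm4, Gsta2 and Gpx1 rose without being durable, and the count of rises was 1 without chow 3, or HFWD+sugar 4, 2 without HFWD+sugar 1 and 3 without HFWD+sugar 5. Nfe2l2, the gene of NRF2 itself, fell from 668 ± 127 to 449 ± 41.1 units (1.47-fold, adjusted p = 0.0118), and the count of falls was 2 without chow 2.

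Calls in the urea cycle and amino acid list went in both directions. Of 26 members tested, 4 fell (Cps1, Ass1, Asl and Tat) and 3 rose (Bhmt, Glul and Tdo2), beside 3.38% and 5.67% of all rows. Cps1, the entry enzyme of the urea cycle, was at 9649.7, 7010.4, 9968 and 4969.5 units on chow and 3136, 2275, 3732, 3275 and 2661 on HFWD+sugar (2.56-fold lower, adjusted p = 0.00101). Bhmt, which remakes methionine with betaine, was at 339.7, 346, 428 and 428 and 869, 676, 717, 926 and 707 units (2.02-fold higher, adjusted p = 0.000817). These were the durable calls of the list, and neither row overlapped between groups. The count of falls was 2 without chow 3, or HFWD+sugar 4. Of 18 opposite-strand rows of this list 5 fell, 3 of them durably, and 1 rose, beside 6.26% and 8.53% of rows at or above the median level. The Cnnm1 row, 2.54 kb from the aspartate transaminase gene Got1, was at 45635, 39012, 34509 and 18701 units on chow and 9767, 4708, 20431, 7584 and 10359.6 on HFWD+sugar, where HFWD+sugar 3 exceeded chow 4 (3.48-fold lower, adjusted p = 0.00518). The 2310007B03Rik row, 5.94 kb from Agxt, the transaminase that clears glyoxylate, fell from 12881 ± 4141 to 6693 ± 206 units (1.86-fold, adjusted p = 0.00114). Both were chosen after their values were seen.

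No member of the list for glucose output and insulin response was called (0 of 18), beside 9.05% of all rows. The own row of Pck1 was at 1305 ± 152 units on chow and 1007 ± 181 on HFWD+sugar (adjusted p = 0.0925), and that of G6pc, glucose-6-phosphatase, at 351 ± 123 and 288 ± 40.2 (adjusted p = 0.662). The Ctcfl row (chromosome 2, 172919110 to 172945026, minus strand) beside Pck1 was at 213354, 153120.1, 231774 and 203201 units on chow and 76748, 90067, 148010.5, 79220.1 and 86578 on HFWD+sugar. HFWD+sugar 3 came close to chow 2, the groups did not overlap, and the fall was 2.13-fold (log2 difference -1.09, SE 0.20, adjusted p = 0.003). Of the 11 opposite-strand rows of the list 3 fell and 3 rose, beside 6.26% and 8.53% of rows at or above the median level. Only the fall of Ctcfl was durable. The count of falls was 1 without chow 1 or 3, or HFWD+sugar 1, 2, 4 or 5.

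**Figure D4:**
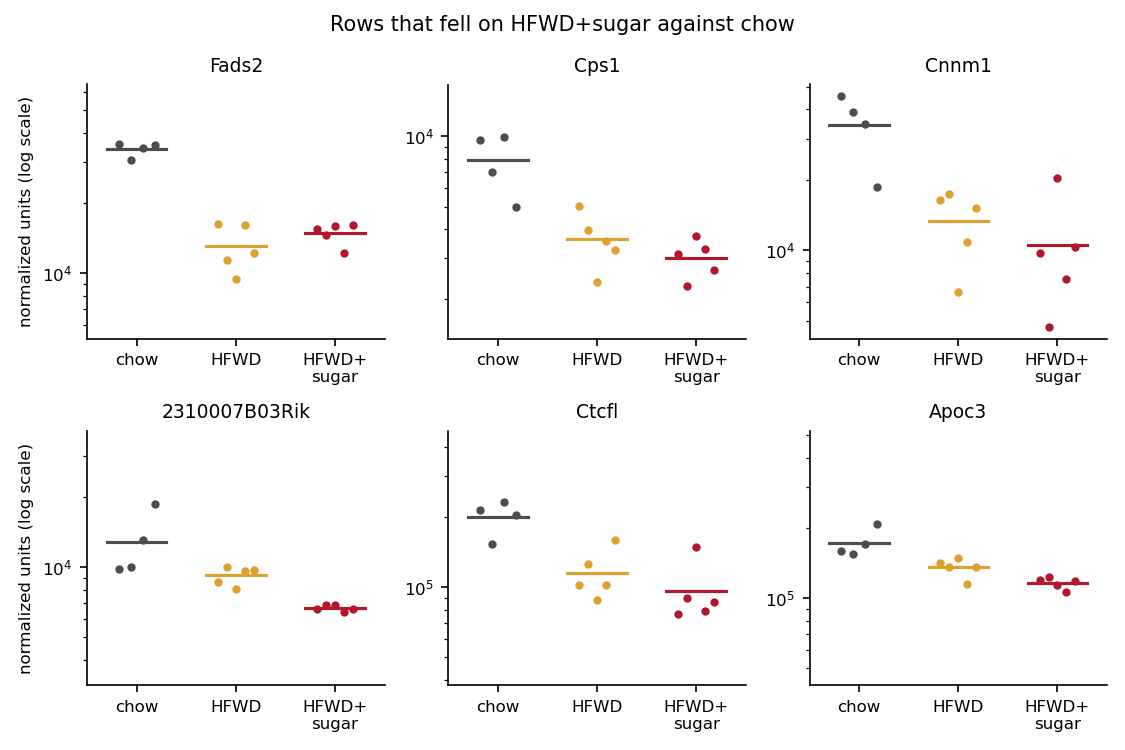
Normalized units (vertical axes, log scale) of 6 rows that fell on HFWD+sugar, in the 4 chow, 5 HFWD and 5 HFWD+sugar livers. Fads2, Cps1 and Apoc3 are rows of genes of desaturation, the urea cycle and lipoproteins. Cnnm1, 2310007B03Rik and Ctcfl lie on the opposite strand from Got1, Agxt and Pck1. Each point is a liver and each bar the group mean. Fads2 separates the groups widely, whereas in Cnnm1 HFWD+sugar 3 lies above chow 4.

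Among 19 rows of apolipoproteins and lipoprotein handling, 3 rose (Apoe and Apoa4 among them), none of them durably, and 1 fell durably, beside 5.67% and 3.38% of all rows. The count of rises was 1 without chow 1 or 3, or HFWD+sugar 4 and 6 without HFWD+sugar 3. The row that fell was Apoc3, an inhibitor of triglyceride clearance, at 159492, 154515, 170577 and 206842 units on chow and 119663, 123101, 113589.5, 106669 and 118444 on HFWD+sugar (1.48-fold, adjusted p = 0.00505). Apoc3 lies 2.47 kb from Apoa1 on the other strand, and its row held 137432 units per kb of exon against 837 for Apoa1. The Ctsa row, chosen after its values were seen, overlaps the phospholipid transfer gene Pltp on the other strand and fell from 5263 ± 683 to 2472 ± 201 units (2.12-fold, adjusted p = 3.41e-06). No plasma protein row of the hepatocyte list was called (0 of 21), beside 9.05% of all rows. Of the 11 opposite-strand rows of that list 4 fell, none durably, beside 6.26% of rows at or above the median level. Their count was 0 without HFWD+sugar 4 and 1 without HFWD+sugar 1, 2 or 5.

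Single markers of macrophages and scarring rose. Of 18 Kupffer cell and macrophage members tested 2, Cd5l and C1qa, rose, beside 5.67% of all rows. The median log2 difference of the 18 was 0.30 beside 0.12 over all rows. Cd5l, a scavenger protein of Kupffer cells, was at 38.5, 50.4, 31.7 and 20.6 units on chow and 62.1, 76.0, 70.4, 195 and 126.3 on HFWD+sugar (2.81-fold, adjusted p = 0.0099), and its rise was the durable one. The count was 1 without chow 3 or 4, or HFWD+sugar 2, 3, 4 or 5. Summed over the 20 rows of the list, the level was 3034 to 5354 units on chow and 3632 to 4807 on HFWD+sugar, so the sums overlapped. The macrophage row Cd68 was at 19.2 ± 9.82 and 22.8 ± 10.1 units (adjusted p = 0.753). Of 21 members tested for stellate cells and matrix 1 rose, beside 5.67% of all rows. The count was 2 without chow 4, or HFWD+sugar 1 or 3 and 3 without chow 2. The list's median log2 difference was 0.51 beside 0.12 over all rows. Col3a1 was the one that rose, from 12.8, 18.4, 15.8 and 13.6 units on chow to 46.4, 37.6, 23.4, 86.3 and 64.8 on HFWD+sugar (3.004-fold, adjusted p = 0.0114), durably. Col3a1 encodes a fibrillar collagen of early scars. Its partner Col1a1 was at the floor in all 4 chow livers and at 6.22, 2.82, 1, 7.42 and 2.60 units on HFWD+sugar (adjusted p = 0.09), and the myofibroblast actin row Acta2 was at 194 ± 59.5 and 209 ± 39.1 units (adjusted p = 0.752). Trem2, Tnf and Timp1, markers of lipid-associated macrophages, inflammation and scarring, were too near the floor to be tested.

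Rows of a few interferon-induced genes and some rows beside chemokine genes rose. Of 19 interferon-induced members tested, 3 rose (Rsad2, Irgm1 and Ifit2), beside 5.67% of all rows. The count was 1 without chow 3 or 4, or HFWD+sugar 1, 4 or 5. Rsad2, the antiviral enzyme viperin, was at 282, 291, 319 and 239.8 units on chow and 485, 883, 428, 715 and 679.7 on HFWD+sugar (2.19-fold, adjusted p = 0.00154). The rise of Rsad2 was the durable one, and its groups did not overlap. Of 15 opposite-strand rows of the list 6 rose, none durably, beside 8.53% of rows at or above the median level. Their count was 2 without chow 1, or HFWD+sugar 2 or 4 and 3 without chow 3. The Art3 row, chosen after its values were seen, overlaps the interferon-induced chemokine gene Cxcl10 on the other strand and was at 331, 208, 199 and 323 and 509, 1199.5, 757, 787 and 673 units (2.92-fold, adjusted p = 0.000353). The Gm17268 row overlaps the monocyte chemokine gene Ccl2 on the other strand and was at 12.8, 21.2, 5.76 and 27.4 and 90.1, 95.9, 65.2, 158 and 91.1 units (6.22-fold, adjusted p = 0.00143). Both rises were durable, while the own row of Ccl2 was at the floor in all 4 chow livers and in 4 of the 5 HFWD+sugar livers. The Olfr94 row, named for an odorant receptor, lies 0.613 kb from Ubd, the inflammation-induced ubiquitin-like gene FAT10, on the other strand. It was at 30.8, 29.2, 25.9 and 27.4 units on chow and 174, 305, 175, 356 and 198 on HFWD+sugar (7.92-fold, adjusted p = 1.48e-06), and the chow livers were nearly equal. Of 19 acute phase members, Orm3 alone rose, beside 5.67% of all rows. It went from 1.28, 6.63, 1 and 1 to 29.5, 6.77, 11.5, 26.7 and 14.01 units (adjusted p = 0.00784), with chow 2 next to HFWD+sugar 2. The count was 2 without HFWD+sugar 2 and 4 without chow 2.

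Over all rows, listed or not, the highest rises among rows of at least median level, predicted genes left out, were those of Kcnb2, Srsf3, Impa2, Tmigd1, Alpk3, Mmp1b, Hmgn3, Olfr94, Tmprss11f and Cyp2c38. Kcnb2, named for a voltage-gated potassium channel, was at 130.3, 18.6, 133 and 466 units on chow and 2801, 2957, 1179, 2115 and 1431 on HFWD+sugar (17.5-fold, adjusted p = 0.00043). Impa2, an inositol monophosphatase on the same strand as Cidea and on the same chromosome, was at 23.1, 57.5, 33.0 and 82.2 and 437, 444, 493, 489.8 and 799 units (11.6-fold, adjusted p = 5.67e-05). Alpk3, named for a protein kinase of heart muscle, was at 17.95, 41.8, 21.6 and 10.3 and 253, 241, 267, 206 and 234 units (11.3-fold, adjusted p = 1.56e-06). The groups were far apart in these 3 rows. Mmp1b, a collagenase row that overlaps the macrophage elastase gene Mmp12 on the other strand, was at 35.9, 79.6, 43.2 and 116 and 525, 316, 357, 975 and 818 units (8.68-fold, adjusted p = 0.00101). Each of the 10 rises was durable, and chow 4 was the highest chow liver in Kcnb2, Impa2, Tmigd1, Mmp1b, Hmgn3 and Tmprss11f and the lowest in Srsf3 and Alpk3.

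The lowest differences beside Wdr37, Akap9 and Ash1l included those of Cnga1, Efna3, Adcy2, Hsh2d, Lyrm4 and Adam24. Cnga1, an ion channel subunit of rod photoreceptors, was at 839.8, 1427, 513 and 287 units on chow and 34.2, 61.8, 151, 73.2 and 33.9 on HFWD+sugar (10.6-fold, adjusted p = 0.00152). Efna3, a membrane ligand of ephrin receptors, was at 82.3, 196, 113 and 171 and 15.5, 22.6, 3.91, 12.4 and 24.7 units (9.18-fold, adjusted p = 0.00101). Adcy2, an adenylate cyclase, fell from 267 ± 132 to 32.4 ± 15.3 units (8.18-fold, adjusted p = 0.000287). Hsh2d, an adaptor of lymphocytes, fell from 468 ± 79.6 to 74.1 ± 32.3 (6.58-fold, adjusted p = 0.00342), and Lyrm4, a factor of iron-sulfur cluster assembly, from 1502 ± 656 to 281 ± 135 (5.36-fold, adjusted p = 0.000112). These 5 falls were durable with groups that did not overlap. That of Adam24 was not, and was lost without chow 1 (adjusted p = 0.0812), chow 3 (0.108), HFWD+sugar 2 (0.0636) or HFWD+sugar 5 (0.066).

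In several lists few or no members were called. Over all rows 5.67% rose and 3.38% fell, which gives few calls in lists this short. A low count therefore does not set a list apart. None was called for ribosomal proteins (0 of 21), sinusoidal endothelium (0 of 12), erythroid cells (0 of 7), cholangiocytes (0 of 6), neutrophils (0 of 3), acinar cells (0 of 3) and B cells (0 of 2). Their medians were not all near the 0.12 of all rows, as the erythroid list was at 0.80 and the sinusoidal list at 0.47 on the log2 scale. Of the 18 opposite-strand rows of the ribosomal protein list 6 fell, 3 of them durably, beside 6.26% of rows at or above the median level. Of 15 cell cycle members 1 fell, Ccne2, a cyclin of S phase entry, from 2558 ± 214 to 1883 ± 181 units (1.36-fold, adjusted p = 0.00836). Of 23 nuclear genes of oxidative phosphorylation 2 rose (Uqcrc1 and Sdha) and 2 fell (Ndufs1 and Ndufb8), beside 5.67% and 3.38% of all rows. The list's median log2 difference was 0.53, with 18 of the 23 above 0 and 14 at an unadjusted p under 0.05. The count of rises was 0 without HFWD+sugar 4, 1 without chow 1 or 3, or HFWD+sugar 1, 2 or 5, 4 without HFWD+sugar 3 and 5 without chow 2. Ndufs1, a subunit of complex I, was the one durable call, a fall from 10912 ± 975 to 8494 ± 314 units (1.28-fold, adjusted p = 0.00733). The endoplasmic reticulum stress list held 1 fall among 18 members, Xbp1, which was not durable, and its stress factor Ddit3 was at 4705 ± 303 and 4517 ± 385 units (adjusted p = 0.699). Clock genes gave 1 rise and 1 fall among 18, and immediate early genes 1 fall among 13, none of them durable. T and NK cells gave 1 fall among 5 and lipid-associated macrophages 1 rise among 10, neither durable.

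**Figure D5:**
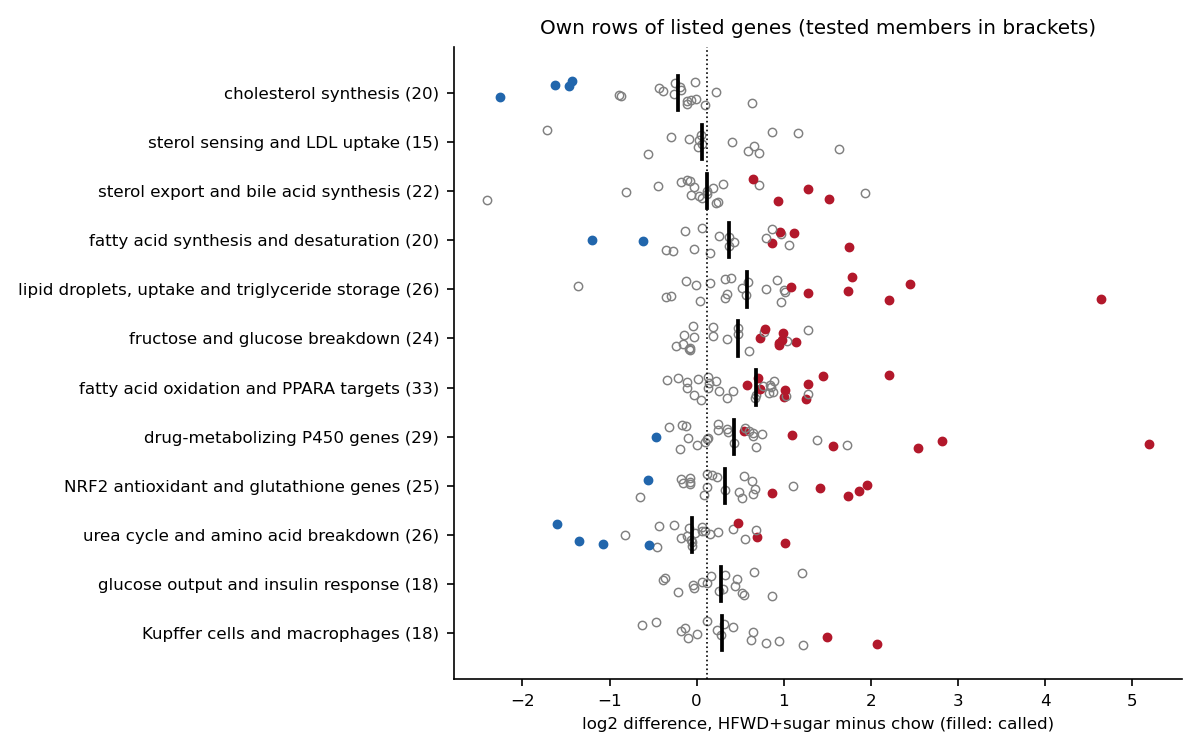
Log2 difference of HFWD+sugar from chow (horizontal axis, log2 of value plus 1) for the tested members of 12 gene lists (rows of the plot); each point is a gene's own row, filled where it was called, and the vertical tick is the list's median. The dotted line marks the median of all rows, 0.12; the oxidation list has its median at 0.68 and the cholesterol synthesis list at -0.22.

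Values of the livers on the Western diet without sugar are set beside those with sugar. The test of HFWD+sugar against HFWD called 0 of 14770 rows (0%), with 1273 at an unadjusted p under 0.05 and 0 called in every alternative run for it. Both comparisons share the HFWD+sugar livers. The Akap9 row was at 1525 ± 131 units on HFWD (SD, n = 5), Wdr37 at 79.7 ± 23.1 and Fads2 at 13060.3 ± 2974, beside HFWD+sugar means of 1568, 95.8 and 14871. Cidea was at 12.2, 20.6, 63.1, 23.9 and 15.6 units in the 5 HFWD livers, Cyp2b9 at 16.7, 39.2, 6.02, 50.3 and 33.4 and Scd1 at 9234, 8611, 7292, 7527 and 6227. In these 3 rows the HFWD+sugar means were higher than the HFWD means, with log2 differences of 1.28, 1.58 and 0.53 (adjusted p = 0.525, 0.503 and 0.46), which did not pass.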

How the data were processed

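The authors deposited normalized expression values for 14 libraries, a signal per gene row on a linear scale whose lowest value in every library is exactly 1. Per the submitters' processing notes, FastQC, TopHat2 2.0, SAMtools and the build mm9 were used; the read counter, its strand setting and its scaling were not given in the sources used here. Whole reads could not be recovered from the values, so no count test was run. The total signal divided by the worth of 1 read, taken from the steps between low values, gave 3.77 M to 9.31 M read equivalents in the 9 livers compared. No pair of replicates agreed within sampling noise (chi-square per degree of freedom 10.0 to 57.3 among chow and 6.62 to 18.9 among HFWD+sugar), and correlations of log2 values within groups were 0.955 to 0.981.

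Groups were taken from the treatment label; replicate numbers follow the order of the series and pair nothing. Values were taken as log2(value + 1), which understates changes of low rows, and rows above 1 in at least 4 libraries were kept. One limma 3.58.1 model (R 4.3.3) held 3 group means over the 14 libraries, with a variance trend, and p-values were adjusted by Benjamini-Hochberg over the 14770 rows; called, rose and fell mean an adjusted p under 0.05. Folds come from the log2 difference, errors of means are SD and of differences SE. Library properties were compared by exact two-sided permutation over 126 regroupings, where the smallest possible p is 0.00794. The fit was tested on simulated data.

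Named were the 10 highest and 10 lowest called rows at or above the median level with groups apart, without predicted genes; up to 4 called members of each of 33 lists in each direction by p; a panel of 26 genes; and opposite-strand rows beside these. Further called members are named without values. A few rows that these rules name are not reported here. Of 610 listed genes 606 had a row, and the other 4 are not analysed here. Members and lists were chosen with earlier results of these data known. Exon lengths came from GENCODE vM1 (mm9), promoters from RefSeq GRCm38.p6, and figures from Python 3.11.15 with matplotlib 3.10.9. The 20 alternatives changed the libraries fitted, the pseudocount (0 or 10), the filter (none, or a mean of at least 20 units), the scaling, library weights and the variance trend, or left libraries out.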

Additional observations from a re-analysis of the deposited data

Results flagged for a closer look

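Among the rows with values above, and 4 library measures, 162 sets of 4 or 5 livers were searched for a liver standing far from the rest of its group, by Dixon's ratio at its 95% critical value (0.829 for 4 livers, 0.71 for 5). Chance alone gives about 5% of such sets, and 14 were found, 3 each in chow 2, chow 4, HFWD+sugar 4 and HFWD+sugar 5. That share does not hold where all other livers of a group were at the floor, as for Cidea, Fgf21 and Fdps below. There the ratio is 1 for any value above the floor, so the search says nothing about how far the liver stands out.

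In chow 4, the liver of lowest depth, Fabp2 stood at 130.0 units against at most 63.5 in the other chow livers, Fasn at 147 against at most 74.3, and Ccne2 low at 2238 against at least 2641. Chow 2 held the single chow values above the floor of Cidea and Fgf21, 2.65 units in each, which is the worth of 1 read in that library. It also held 6.63 units of Orm3 against at most 1.28.

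HFWD+sugar 5 stood high in Lyrm4 (521 units against at most 235) and Impa2 (799 against at most 493), and its 20 highest rows took 20.2% of the signal against at least 21.1% in the other HFWD+sugar livers. HFWD+sugar 4 stood high in Acadm (471 units against at most 314), Fabp2 (234 against at most 173) and Fdps (4.95 against the floor of 1). HFWD+sugar 3 was high in the Ctcfl row, at 148010.5 units against at most 90067, and HFWD+sugar 1 was low in the Tmem63a row, at 32753 units against at least 37001.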

How the results depend on the processing

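No paired analysis was possible because the replicate numbers follow the order of the series and tie no livers together. Among 190 named rows followed through up to 20 alternatives each, none that was called, in the main fit or the alternative, changed direction. The outcome, called or not called, was the same in 3286 repeats, while 67 gained a call and 433 lost it. A change of direction in a row called in neither fit counts as the same outcome. Of the 125 called rows, 71 kept the call throughout. Of the 1336 calls in all, the fit to the 9 livers alone gave 745 (495 higher, 250 lower; 734 shared), no filter 774 (470 and 304; 728 shared), no variance trend 745 (529 and 216; 712 shared) and array weights 2174 (1296 and 878; 1275 shared). Median centring gave 420 higher and 1151 lower, with 919 shared, and moved the median difference from 0.12 to -0.09. Leaving out single livers gave 674 to 1768 calls, 431 to 1025 of them higher and 243 to 743 lower.

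Calls among the opposite-strand rows went from 93 to 61 with the 9 livers alone, 59 without a filter and 52 without the trend, and from 60 to 117 with single livers left out; same-strand rows gave 50. Falls in the cholesterol list were 2 without a filter, 7 with median centring and 2 to 4 with single livers left out, while the 5 opposite-strand falls of that list stood in each alternative. Without a filter, rises numbered 4 in the droplet list, 3 in the fructose and glucose list and 5 in the oxidation list; without the trend the last 2 gave 3 and 5, the 9 livers alone gave 4 for fructose and glucose, and array weights gave 10 P450 rises. Single livers left out gave 4 to 11, 3 to 9, 4 to 12 and 4 to 11 for droplets, fructose and glucose, oxidation and P450. Opposite-strand falls of the plasma protein list numbered 1 with the 9 livers alone, without a filter or with chow 2 and chow 4 both left out, 0 with quantile scaling or without the trend, and 0 to 4 with single livers left out. Opposite-strand rises of the interferon list numbered 3 with the 9 livers alone or without the trend, 2 without a filter or with median centring, and 2 to 5 with single livers left out; opposite-strand falls of the ribosomal list numbered 3 without the trend or with chow 2 and chow 4 both left out, and 4 to 6 with single livers left out.

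The difference in rows at the floor ran from -928 to -338 and its exact permutation p from 0.0179 to 0.107 with single livers left out; for the median log2 level these were 0.17 to 0.26 and 0.0286 to 0.0893. The causes of these shifts were not tested. Chow 4, at 3.77 M read equivalents, limits what can be seen in rows of a few reads, and intervals beyond the spread between livers are not given because counts were not recovered.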
